A study of Homo sapiens with 12 samples.

Results

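The 48 genes described here code for Wnt ligands, their receptors, their antagonists and the targets of the pathway, in BJ-5ta fibroblasts with and without LEO1. They were chosen by symbol, with earlier results of these data known. Each of the 48 symbols matched 1 Ensembl identifier among the 60671 genes of the count table. By role they were 7 ligands, 2 genes for ligand acylation and export, 12 receptors and co-receptors, 11 secreted or membrane antagonists, 6 genes of the R-spondin module, 6 cytoplasmic components and 4 TCF/LEF transcription factors. A list of 11 feedback targets cut across these roles. Of the 48 genes, 35 passed the filter of more than 1 CPM (count per 1000000 gene counts) in 3 or more libraries and were tested, and 13 did not.

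Wnt proteins are secreted, lipid-modified ligands. PORCN attaches the lipid and WLS carries the ligand to the cell surface. In the canonical branch a Wnt binds a Frizzled receptor (FZD) and an LRP co-receptor, the complex of AXIN, APC and kinases stops degrading β-catenin, and β-catenin acts in the nucleus with TCF/LEF factors. In the non-canonical branch, ligands such as WNT5A and WNT11 act through Frizzleds and the ROR receptors on cell shape and movement. Dickkopf (DKK), secreted Frizzled-related (SFRP, FRZB) and other proteins block the ligands or receptors, while R-spondins sustain the receptors by removing the ubiquitin ligases ZNRF3 and RNF43. Several targets of β-catenin, AXIN2 among them, feed back on the pathway. Fibroblasts of the skin are a known source of Wnt ligands and antagonists.

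BJ-5ta is a line of human foreskin fibroblasts immortalized with telomerase. Wild-type cells (WT) and ΔLEO1 cells, in which CRISPR/Cas9 was aimed at the first exons of LEO1, were grown in 10% serum or kept in 0.1% serum for 10 days, and poly(A) RNA was sequenced with ERCC spike-in transcripts in 3 libraries of each of the 4 groups. Libraries 1 to 3 were WT in 10% serum, 4 to 6 ΔLEO1 in 10% serum, 7 to 9 WT in 0.1% serum and 10 to 12 ΔLEO1 in 0.1% serum. The ΔLEO1 cells were a single clone, so that the spread between their libraries does not include differences between clones, and a difference from WT cannot be told apart from a difference between clones. Nothing states that the libraries of a group came from separate cultures, so p-values measure the spread between these libraries only, which may be technical.

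The libraries held 26240632 to 45315560 gene counts, and ERCC transcripts took 0.625% to 3.24% of the counts of a library. In each group the pairs that include the highest-numbered library (3, 6, 9 or 12) differed by a chi-square of 72.4 to 158 per gene, and the other pairs by 3.17 to 13.3. The 14 of 14 fibroblast markers reached 1 CPM in every group, while the defining markers MYOD1 of muscle and SOX10 of Schwann cells had no count. Of 9 epithelial markers, 2 or 3 reached 1 CPM in a group. Their summed level was 319 to 463 CPM in WT and 841 to 1141 CPM in ΔLEO1 in 10% serum, and 167 to 182 CPM and 510 to 585 CPM in 0.1% serum, most of it KRT18, with TP63 at no more than 0.0594 CPM. The 6 endothelial markers summed to 2.04 to 5.55 CPM in the WT libraries and 0.400 to 0.670 CPM in the ΔLEO1 libraries, most of it TEK in WT, and the 6 leukocyte markers to 0.995 to 1.70 CPM in the WT libraries and 2.72 to 8.24 CPM in the ΔLEO1 libraries, most of it PTPRC in ΔLEO1. The 4 muscle markers summed to at most 9.14 CPM, the 4 Schwann cell markers to at most 1.99 CPM and the 4 melanocyte markers to at most 0.823 CPM in a library. The part of these markers' cell types in the genotype differences below was not tested. Below, ERCC-scaled counts are gene counts per 1000000 effective ERCC counts of the library, the ERCC total times its TMM factor. LEO1 itself, the check of the labels, had 2942, 2507 and 1621 ERCC-scaled counts in WT in 10% serum, and 216, 92.6 and 131 in ΔLEO1. In 0.1% serum it had 1392, 1837 and 759 in WT, and 34.8, 43.3 and 126 in ΔLEO1. The log2 fold change of LEO1 was -4.02 ± 0.58 (SE) in 10% serum and -4.32 ± 0.59 in 0.1% serum.

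On the ERCC scale the genes of the pathway moved in both directions in low serum, and most of those that differed between the genotypes were lower in ΔLEO1. A gene was called where edgeR's quasi-likelihood test gave an adjusted p under 0.05 over the 13236 genes tested. In WT in 0.1% serum, 4 of the 35 tested members were called higher than in 10% serum (11.4%, against 0.831% of all tested genes) and 7 lower (20%, against 27.0%). In ΔLEO1 3 were called higher (8.57%, against 0.793%) and 7 lower (20%, against 36.4%). Between the genotypes in 10% serum, 1 member was called higher in ΔLEO1 (2.86%, against 3.81%) and 5 lower (14.3%, against 4.20%). In 0.1% serum 1 was called higher (2.86%, against 3.49%) and 7 lower (20%, against 3.41%). In all, 17 of the 35 tested members were called in at least 1 of the 4 comparisons. The share of all tested genes called in at least 1 comparison is not given here. Of all tested genes, 27.0% in WT and 36.4% in ΔLEO1 were called lower in low serum alone.

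The median log2 fold change of the 35 members was -0.60 in WT and -0.59 in ΔLEO1 between the serum levels, where the median of all tested genes was -0.97 and -1.05. ΔLEO1 against WT, it was 0.17 in 10% serum and 0.24 in 0.1% serum, where that of all genes was 0.35 and 0.27. Without the 4 highest-numbered libraries (3, 6, 9 and 12) the sign turned in 0.1% serum, with a median of -0.49 over the members (5 above 0, where 23 had been) and -0.42 over all genes. The serum change of the members in ΔLEO1 then had a median of -1.18, against -1.72 over all genes. On the ERCC scale a lower value in low serum can come from less RNA per cell or from fewer cells of a type, and these cannot be told apart in bulk RNA. The RNA input of each library is not given in the sources used here. TMM scaling on the genes, which takes out a shift common to most genes, brought the all-gene median of each comparison to between 0.00 and 0.02 and changed the balance of the calls. With it 11 members were called higher in low serum and 4 lower in WT (all genes 15.5% and 16.1%), and 16 higher and 3 lower in ΔLEO1 (all genes 15.5% and 12.1%). Between the genotypes, 5 were called higher in ΔLEO1 and 11 lower in 10% serum (all genes 17.9% and 21.4%), and 4 higher and 9 lower in 0.1% serum (all genes 15.1% and 17.3%). Of the 35 calls on the ERCC scale, 27 were also calls with TMM, in the same direction.

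**Figure D1:**
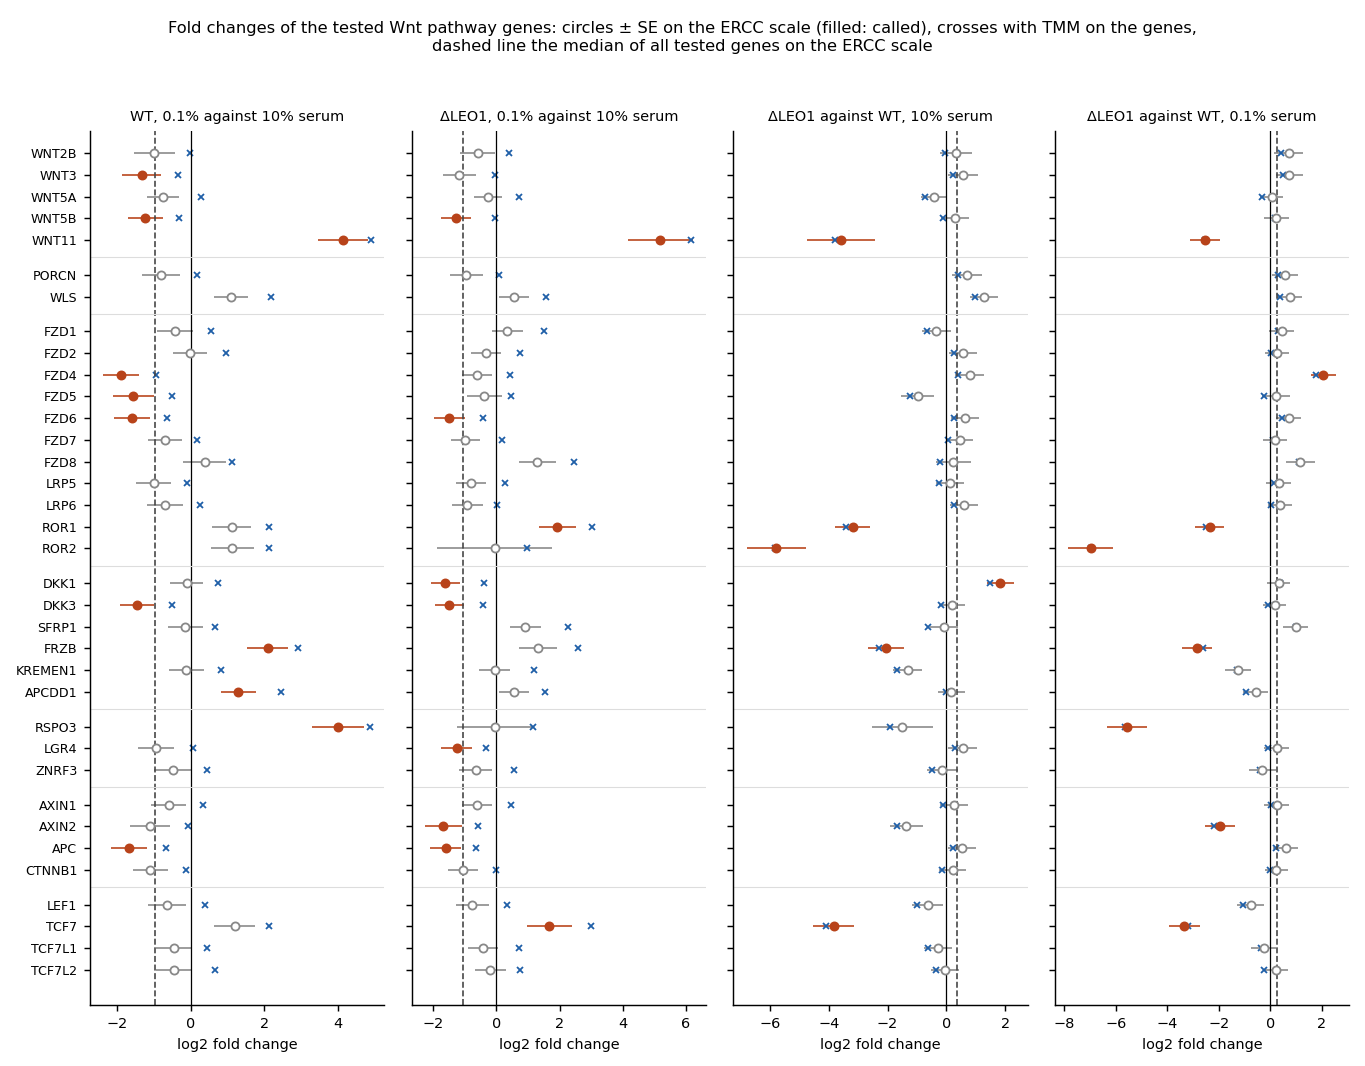
Log2 fold changes (x axes) of the 35 tested genes, ordered by role from ligands to TCF/LEF factors, in the 4 comparisons. Circles with bars are the estimate ± SE on the ERCC scale, filled and red where called, blue crosses the same with TMM on the genes, and the dashed line is the median of all tested genes on the ERCC scale. In the 2 serum panels most circles lie left of 0 and most crosses right of it, and WNT11, ROR1, ROR2, FRZB and TCF7 are red and left of 0 in both genotype panels.

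WNT5A was by far the most abundant ligand, and WNT11 had the largest fold changes among the 5 tested ligands. Per kb of exon, WNT5A took 94.0% of the summed level of the 7 ligands in WT in 10% serum, 95.1% in WT in 0.1% serum, 90.3% in ΔLEO1 in 10% serum and 94.8% in ΔLEO1 in 0.1% serum. It had 226271 ± 80148 ERCC-scaled counts (SD, n = 3) in WT and 167877 ± 31822 in ΔLEO1 in 10% serum, and 134323 ± 18216 and 139133 ± 97220 in 0.1% serum. None of its 4 differences passed the test on the ERCC scale. With TMM on the genes it was lower in ΔLEO1 in 10% serum (log2 fold change -0.74, adjusted p = 0.00156) and higher in low serum in ΔLEO1 (0.70, adjusted p = 0.00418). WNT5B, its close relative, followed at 5.37% of the ligand level per kb in WT in 10% serum.

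WNT11, a ligand of the non-canonical branch, spans 76186325 to 76210736 of chromosome 11 (minus strand, GRCh38). In 10% serum it had 17.3, 10.7 and 14.2 ERCC-scaled counts in the WT libraries and 0, 2.57 and 0 in the ΔLEO1 libraries. In 0.1% serum it had 320, 384 and 46.8 in WT and 31.8, 35.0 and 64.2 in ΔLEO1. Each library in low serum was thus above each library of its own genotype in 10% serum, and WT library 9 lay among the ΔLEO1 libraries. The rise in low serum had a log2 fold change of 4.14 ± 0.67 (SE) in WT (adjusted p = 8.40e-08) and 5.19 ± 1.02 in ΔLEO1 (adjusted p = 3.00e-05). In ΔLEO1 it rested on 84 counts against 1 count over the 3 libraries, a ratio of 41.5 with a 95% counting interval of 7.25 to 1659. ΔLEO1 was below WT in 0.1% serum by a log2 fold change of -2.53 ± 0.59 (adjusted p = 5.16e-04). In 10% serum the fold change was -3.59 ± 1.16 (adjusted p = 0.0281) on 17 counts against 1, a ratio of 14.6 with an interval of 2.29 to 611, and this call was lost without library 1, 3, 4 or 6 (largest adjusted p = 0.214), with TMM (0.0664), with DESeq2 (0.0704) and without the 4 highest-numbered libraries (0.127). The other 3 calls of WNT11 were made in each of the 12 fits that left out 1 library.

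WNT3 and WNT5B, a canonical and a non-canonical ligand, were the ligands called lower in low serum. WNT5B had 8882, 8149 and 5563 ERCC-scaled counts in WT in 10% serum and 3135, 4327 and 2131 in 0.1% serum. In ΔLEO1 it had 12066, 9278 and 6185 in 10% serum and 4418, 2596 and 4292 in 0.1% serum. The serum groups did not overlap in either genotype. The log2 fold change was -1.24 ± 0.48 in WT (adjusted p = 0.0422) and -1.28 ± 0.48 in ΔLEO1 (adjusted p = 0.0343), close to the all-gene medians of -0.97 and -1.05. WNT3 had 1034, 866 and 544 in WT in 10% serum and 313, 372 and 281 in 0.1% serum, a log2 fold change of -1.34 ± 0.52 (adjusted p = 0.0424). In ΔLEO1 WNT3 had 1501, 1232 and 888, then 501, 302 and 809, and was not called. With TMM none of these 3 calls remained (adjusted p = 0.0621 for WNT3, and 0.290 and 0.941 for WNT5B in WT and ΔLEO1). They were also lost without any of libraries 1, 2, 5, 6, 7, 8, 9 or 10 for WNT3 (largest adjusted p = 0.203), 1, 2, 5, 6, 7, 9 or 10 for WNT5B in WT (0.211) and 2, 4, 5, 7, 10 or 11 for WNT5B in ΔLEO1 (0.179).

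The remaining ligands were scarce. WNT2B had 40 to 99 counts in a library and was not called, and over 21.2% of its exon bases it shares sequence with ST7L on the opposite strand. WNT16 had 4 counts in all and was not tested. WNT2 was under the filter, with 4, 6 and 12 counts in WT in 10% serum, 3, 4 and 27 in WT in 0.1% serum, 0, 9 and 12 in ΔLEO1 in 10% serum and 1, 0 and 0 in ΔLEO1 in 0.1% serum. In the fit without a filter, WNT2 was lower in ΔLEO1 in 0.1% serum than in 10% serum (adjusted p = 0.00139) and than in WT in 0.1% serum (adjusted p = 0.00191). The ratio of the latter pair was 35.4 with a counting interval of 5.93 to 1438.

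Of the acylation and export genes, neither was called on the ERCC scale. WLS had 8134 ± 3764 ERCC-scaled counts in WT and 19618 ± 5800 in ΔLEO1 in 10% serum, with no overlap between these groups, and 17296 ± 2084 and 29022 ± 18861 in 0.1% serum. Its log2 fold change was 1.27 ± 0.47 between the genotypes in 10% serum (adjusted p = 0.0803) and 1.09 ± 0.47 between the serum levels in WT (adjusted p = 0.0615). With TMM both passed (0.97, adjusted p = 0.00290, and 2.17, adjusted p = 3.75e-05), as did its serum change in ΔLEO1 (1.58, adjusted p = 3.10e-04). PORCN, the acyltransferase, had log2 fold changes between -0.95 and 0.71 on the ERCC scale in the 4 comparisons. With TMM it was called higher in ΔLEO1 in 10% serum and in 0.1% serum (0.38 and 0.31, adjusted p = 0.00898 and 0.0278).

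**Figure D2:**
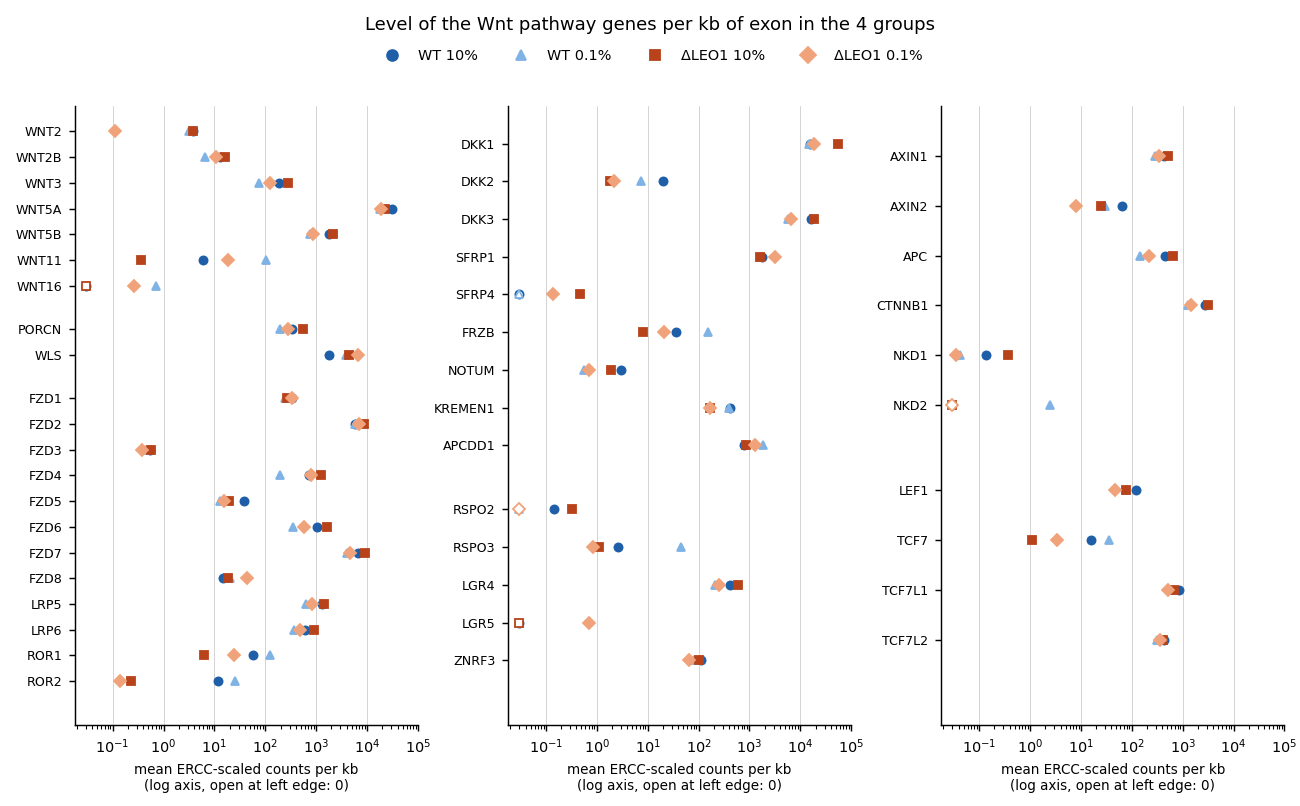
Mean ERCC-scaled counts per kb of exon (x axes, log scale) of the 45 genes that had at least 1 count, grouped by role from top to bottom and left to right, with 1 symbol for each of the 4 groups. Open symbols at the left edge stand for a mean of 0. WNT5A, FZD2, FZD7, DKK1, DKK3, CTNNB1 and WLS lie above 1000 in each group, while the 4 symbols of WNT11, ROR2, RSPO3 and TCF7 are spread far apart.

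The ROR receptors were the receptors most reduced in ΔLEO1. ROR1 and ROR2 are receptor tyrosine kinase-like proteins that bind WNT5A. ROR2 (chromosome 9, minus strand, 91563091 to 91950162) had 96.8, 80.4 and 24.8 ERCC-scaled counts in WT and 4.08, 0 and 0 in ΔLEO1 in 10% serum. In 0.1% serum it had 159, 205 and 73.5 in WT and 1.51, 0.921 and 0 in ΔLEO1. No ΔLEO1 library reached the lowest WT library. The log2 fold change was -5.78 ± 1.01 in 10% serum and -6.97 ± 0.87 in 0.1% serum (adjusted p = 4.44e-07 and 2.58e-13). With 72 counts against 1 and 269 against 2, the ratios were 62.0 (counting interval 10.8 to 2480) and 140 (38.4 to 1162).

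ROR1 (chromosome 1, plus strand, 63774022 to 64181498) had 570, 424 and 147 ERCC-scaled counts in WT and 53.0, 28.3 and 45.1 in ΔLEO1 in 10% serum. The values in 0.1% serum were 990, 1074 and 387 in WT and 177, 82.9 and 221 in ΔLEO1. It was thus also lower in every ΔLEO1 library than in the WT libraries of the same serum level, by -3.18 ± 0.60 on the log2 scale in 10% serum and -2.36 ± 0.55 in 0.1% serum (adjusted p = 4.78e-06 and 5.72e-04). The genotype differences of ROR1 and ROR2 were called in each of the 12 fits that left out 1 library, and with TMM. Within ΔLEO1, ROR1 rose in low serum by 1.93 ± 0.58 (adjusted p = 0.0124), a call lost without library 4, 5 or 10 (largest adjusted p = 0.0884). In WT its change was 1.11 ± 0.53 (adjusted p = 0.0835), and the change of ROR2 was 1.13 ± 0.58 (adjusted p = 0.0999), both past the threshold with TMM.

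The sequence upstream of the starts of ROR1, ROR2 and TCF7, genes lower in ΔLEO1 at both serum levels, is given from the RefSeq promoter table (GRCh38.p14), 5′ to 3′ on the strand of the gene, in lower case with each CG dinucleotide in capitals. The windows are chr1:63773767-63774016 for ROR1, chr9:91950229-91950478 (minus strand) for ROR2, and chr5:134115388-134115562 and chr5:134123368-134123617 for 2 starts of TCF7, the former without 75 bases that are exonic in the annotation.
ROR1: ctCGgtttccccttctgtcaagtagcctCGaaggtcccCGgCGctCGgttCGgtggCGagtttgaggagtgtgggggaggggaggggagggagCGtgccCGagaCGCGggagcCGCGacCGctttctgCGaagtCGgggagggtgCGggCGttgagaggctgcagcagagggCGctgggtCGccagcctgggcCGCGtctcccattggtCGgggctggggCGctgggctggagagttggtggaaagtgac
ROR2: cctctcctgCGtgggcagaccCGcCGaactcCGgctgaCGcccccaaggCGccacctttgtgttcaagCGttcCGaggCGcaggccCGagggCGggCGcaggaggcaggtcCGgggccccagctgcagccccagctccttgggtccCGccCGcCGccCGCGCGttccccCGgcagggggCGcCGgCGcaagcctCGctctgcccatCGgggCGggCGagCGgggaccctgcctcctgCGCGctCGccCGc
TCF7, upstream start: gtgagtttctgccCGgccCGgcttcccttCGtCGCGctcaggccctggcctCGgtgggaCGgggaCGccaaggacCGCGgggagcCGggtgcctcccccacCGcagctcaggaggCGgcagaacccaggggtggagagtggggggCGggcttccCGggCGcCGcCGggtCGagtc
TCF7, downstream start: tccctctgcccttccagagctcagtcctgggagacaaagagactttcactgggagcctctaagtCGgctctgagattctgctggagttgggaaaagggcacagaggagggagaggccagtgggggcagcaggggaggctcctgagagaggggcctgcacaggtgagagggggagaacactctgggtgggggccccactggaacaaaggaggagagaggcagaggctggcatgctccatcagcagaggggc
The table held windows of 300 bases (250 before and 50 after a start) for 32 of the 48 members, 42 windows in all, whose median was 22.5 CG dinucleotides, against 14 over the 35116 windows of the table. Over the same 300 bases ROR1 had 29 CG dinucleotides, ROR2 42, and the upstream and downstream starts of TCF7 25 and 3. FRZB, also lower in ΔLEO1 at both serum levels, had 17, and its sequence is not printed. WNT11, lower at both levels too, had no window. The letters CTTTGAT, the core of the TCF/LEF site, were in 0 of the 42 windows on either strand and in 919, or 2.62%, of all windows.

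Among the Frizzled receptors, FZD2 and FZD7 were the most abundant in every group. Per kb they took 34.8% and 40.3% of the summed level of the 12 receptors in WT in 10% serum, and 46.7% and 32.0% in ΔLEO1 in 0.1% serum. Neither was called in any comparison on the ERCC scale. FZD3 had 2 to 6 counts in a library and was not tested. The co-receptors LRP5 and LRP6 had 8022 ± 1163 and 6287 ± 1502 ERCC-scaled counts in WT in 10% serum and 3974 ± 1317 and 3867 ± 1054 in 0.1% serum. In ΔLEO1 they had 8774 ± 1333 and 9533 ± 1579, then 5003 ± 2295 and 5038 ± 3847. None of their differences was called on either scale.

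FZD4 was the receptor called higher in ΔLEO1 on the ERCC scale, in 0.1% serum. It lies on the minus strand of chromosome 11 from 86945679 to 86955391. In 10% serum it had 6289, 5615 and 4070 ERCC-scaled counts in WT and 12087, 8772 and 6705 in ΔLEO1. These groups did not overlap, and their difference was not called on the ERCC scale. With TMM their means were 55.5 ± 4.81 CPM (SD, n = 3) in WT and 73.3 ± 6.57 CPM in ΔLEO1. At 0.1% serum the libraries had 1498, 1812 and 993 in WT and 5128, 2759 and 10033 in ΔLEO1. The WT libraries in low serum were the 3 lowest of the 12. The fall in WT was -1.89 ± 0.49 on the log2 scale (adjusted p = 0.00217), and ΔLEO1 was above WT in 0.1% serum by 2.06 ± 0.49 (adjusted p = 8.87e-04). Both calls were made in each of the 12 fits that left out 1 library, and with TMM. In ΔLEO1 the change in low serum was -0.62 ± 0.48 (adjusted p = 0.236) on the ERCC scale and 0.42 (adjusted p = 0.0111) with TMM. FZD4 shares 18.9% of its exon bases with PRSS23 on the opposite strand, which had 397738 counts over the 12 libraries against 28453 for FZD4, and the strand setting of the counting is not given in the sources used here. PRSS23 had log2 fold changes of -1.53 ± 0.46 in WT in low serum (adjusted p = 0.00921) and 1.04 ± 0.45 between the genotypes in 0.1% serum (adjusted p = 0.221). With TMM these were -0.56 and 0.83, both called (adjusted p = 0.00322 and 1.90e-04). In 10% serum PRSS23 was called higher in ΔLEO1 on the ERCC scale (1.56 ± 0.46, adjusted p = 0.0117) and with TMM (1.23, adjusted p = 7.62e-06). The part of PRSS23 in the FZD4 values was not tested.

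FZD6 and FZD5 were the other Frizzleds called lower in low serum. FZD6 had 5341, 4537 and 3038 ERCC-scaled counts in WT in 10% serum and 1391, 1947 and 962 in 0.1% serum. In ΔLEO1 it had 8302, 6511 and 5122, then 1846, 1245 and 3988. The serum groups did not overlap in either genotype, with log2 fold changes of -1.59 ± 0.49 in WT (adjusted p = 0.0117) and -1.49 ± 0.49 in ΔLEO1 (adjusted p = 0.0194), and both calls were also made with TMM. They were lost without library 1, 2, 7 or 9 in WT (largest adjusted p = 0.112) and 4, 5, 10 or 11 in ΔLEO1 (0.148). FZD5 had 335, 287 and 163 in WT in 10% serum and 65.4, 89.7 and 108 in 0.1% serum, a log2 fold change of -1.57 ± 0.56 (adjusted p = 0.0279). In ΔLEO1 it had 114, 105 and 178, then 78.7, 33.1 and 200. The FZD5 call was lost without library 1, 2, 7, 8 or 9 (largest adjusted p = 0.161) and with TMM (0.312). FZD1, FZD7 and FZD8 had no call on the ERCC scale.

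**Figure D3:**
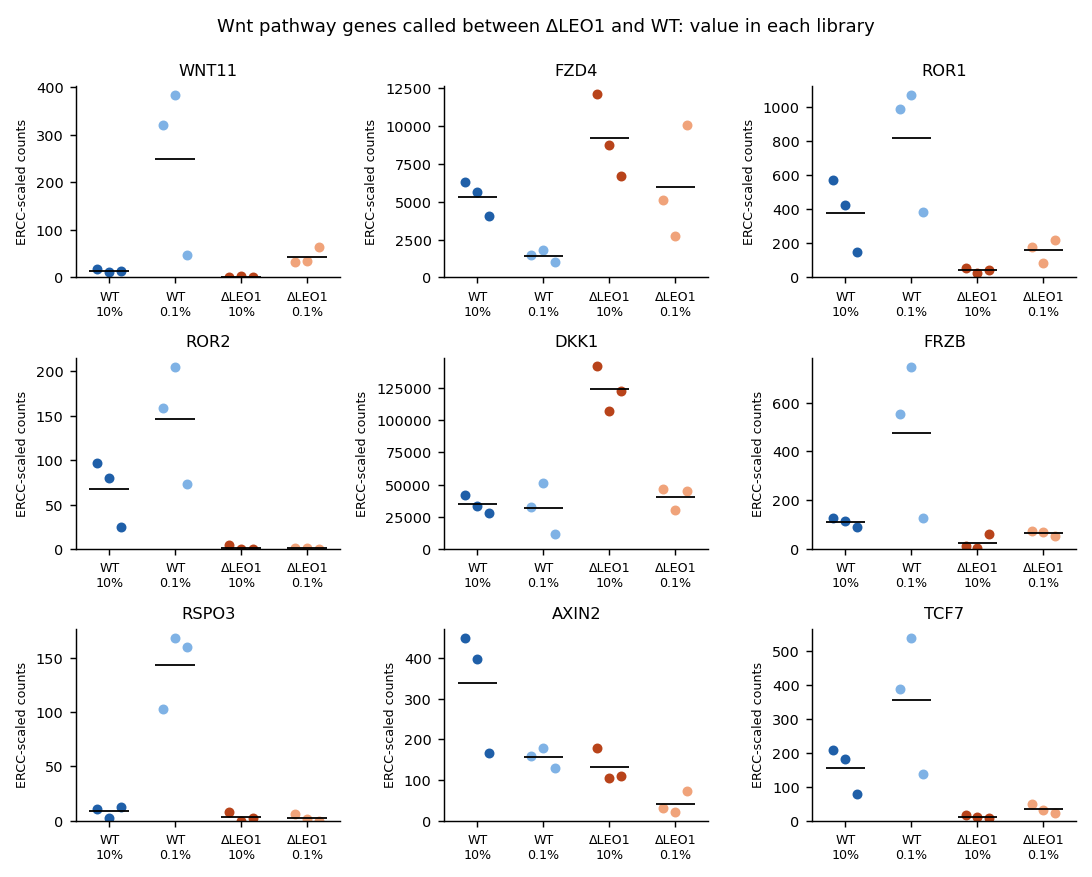
ERCC-scaled counts (y axes, linear from 0) of the 9 genes called between ΔLEO1 and WT in at least 1 serum level, with 1 point for each of the 3 libraries of a group and a line at the group mean. The points of ROR1, ROR2 and TCF7 lie lower in ΔLEO1 than those of WT at the same serum level, DKK1 is high in ΔLEO1 in 10% serum, and RSPO3 and WNT11 are high in WT in 0.1% serum.

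Among the antagonists, DKK1 was higher in ΔLEO1 in 10% serum and FRZB lower in ΔLEO1 at both serum levels. DKK1 binds LRP5 and LRP6 and blocks canonical signalling, and it lies on the plus strand of chromosome 10 from 52314296 to 52318042. In 10% serum it had 41939, 33663 and 27972 ERCC-scaled counts in WT and 141920, 106787 and 122263 in ΔLEO1. In low serum it had 32854, 51179 and 12012 in WT and 46156, 30056 and 44646 in ΔLEO1. The 3 ΔLEO1 libraries in 10% serum were thus above all 9 others. The difference between the genotypes was 1.84 ± 0.47 on the log2 scale in 10% serum (adjusted p = 0.00177), called in each of the 12 fits that left out 1 library and with TMM. In 0.1% serum it was 0.33 ± 0.45 (adjusted p = 0.870). In ΔLEO1, DKK1 fell in low serum by 1.62 on the log2 scale (SE 0.46, adjusted p = 0.00825), a call lost without library 4 or 10 (largest adjusted p = 0.0606) and with TMM (-0.38, adjusted p = 0.418). DKK1 was the most abundant antagonist per kb in ΔLEO1 in 10% serum, at 56055 ERCC-scaled counts per kb against 18375 for DKK3, while in WT in 10% serum the levels were 15650 and 16027. In 0.1% serum DKK1 was also the most abundant, at 14513 against 5769 in WT and 18262 against 6508 in ΔLEO1.

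DKK3, a member of the family that does not act on the LRP co-receptors like DKK1, fell in low serum in both genotypes. It had 97469, 79775 and 66003 ERCC-scaled counts in WT in 10% serum and 27951, 35288 and 24320 in 0.1% serum. ΔLEO1 libraries had 109705, 82054 and 87121, then 31439, 16617 and 50718. The serum groups did not overlap. The log2 fold changes of -1.47 ± 0.46 (adjusted p = 0.0128) and -1.50 ± 0.46 (adjusted p = 0.0143) became -0.52 and -0.44 with TMM, both still called. On the ERCC scale they were lost without library 1, 2, 7 or 9 in WT (largest adjusted p = 0.100) and 4, 10 or 11 in ΔLEO1 (0.116).

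FRZB, a secreted Frizzled-related protein that binds Wnt ligands, lies on the minus strand of chromosome 2 from 182833275 to 182867162. In 10% serum it had 128, 115 and 92.1 ERCC-scaled counts in WT and 12.2, 2.57 and 61.7 in ΔLEO1. The values in 0.1% serum were 555, 747 and 129 in WT and 75.7, 71.8 and 51.4 in ΔLEO1. The genotypes did not overlap at either serum level, though ΔLEO1 library 6 and WT library 9 lay nearer to the other genotype. The log2 fold change between the genotypes was -2.05 ± 0.62 in 10% serum and -2.83 ± 0.58 in 0.1% serum (adjusted p = 0.0136 and 3.84e-05). The former was lost without library 1, 2, 4 or 5 (largest adjusted p = 0.344) and with DESeq2 (0.141), and without library 6 it was at its largest, -4.01. In WT, FRZB rose in low serum by 2.09 ± 0.56 (adjusted p = 0.00326), a call made in each fit that left out 1 library. In ΔLEO1 the change was 1.32 ± 0.61 (adjusted p = 0.0643).

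APCDD1, a membrane protein that binds Wnt and LRP proteins, was the other antagonist called higher in low serum in WT. It had 6990, 5435 and 1322 ERCC-scaled counts in 10% serum and 9273, 12428 and 11993 in 0.1% serum. The values in ΔLEO1 were 5615, 4215 and 5668, then 6392, 3402 and 13068. The WT groups did not overlap, with library 3 far below the others, and the log2 fold change was 1.29 ± 0.48 (adjusted p = 0.0348). This call was lost without library 2, 3, 5, 7, 8, 9 or 10 (largest adjusted p = 0.146) and without the 4 highest-numbered libraries together (0.0710). In ΔLEO1 the change was 0.56 ± 0.48 (adjusted p = 0.282). With TMM both passed, at 2.44 and 1.53.

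Of the other antagonists, SFRP1 had 8375 ± 874 ERCC-scaled counts in WT and 7856 ± 4618 in ΔLEO1 in 10% serum, and 7532 ± 2862 and 14881 ± 5843 in 0.1% serum, and was not called on the ERCC scale. With TMM its rise in low serum in ΔLEO1 was called (2.28, adjusted p = 0.00552). KREMEN1, a co-receptor of DKK1, had 3389 ± 958 and 1371 ± 507 in 10% serum, and 3124 ± 1170 and 1315 ± 463 in 0.1% serum. Its genotypes did not overlap at either serum level, but its log2 fold changes of -1.31 ± 0.49 (adjusted p = 0.0876) and -1.25 ± 0.49 (adjusted p = 0.131) did not pass on the ERCC scale and passed with TMM (-1.68, adjusted p = 2.70e-04, and -1.31, adjusted p = 0.00188). DKK2, under the filter, had 40, 35 and 15 counts in WT and 2, 6 and 0 in ΔLEO1 in 10% serum, and 24, 15 and 26 against 4, 4 and 7 in 0.1% serum. In the fit without a filter the difference in 10% serum was called (adjusted p = 1.91e-04) and that in 0.1% serum was not (0.0907). SFRP2 and WIF1 had no count in any library, SFRP4 had 3 counts in all, and NOTUM, the Wnt deacylase, had no more than 5 in a library.

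Of the R-spondin module, RSPO3 was present in WT cells in low serum and near the floor elsewhere. RSPO3, which amplifies Wnt signals through the LGR receptors, lies on the plus strand of chromosome 6 from 127118604 to 127197765. In 10% serum it had 10.4, 2.68 and 12.4 ERCC-scaled counts in WT and 8.16, 0 and 2.37 in ΔLEO1. At 0.1% serum the libraries had 103, 168 and 160 in WT and 6.06, 1.84 and 0 in ΔLEO1. The 3 WT libraries in low serum, with 74, 73 and 144 counts, were above all others, which had at most 7 counts. The rise in WT was 4.0 ± 0.70 on the log2 scale (adjusted p = 1.01e-06), and ΔLEO1 was below WT in 0.1% serum by -5.56 ± 0.77 (adjusted p = 4.77e-11). Both calls were made in each of the 12 fits that left out 1 library, and with TMM. In ΔLEO1, 6 counts in low serum stood against 3 in 10% serum, a ratio of 0.988 on the ERCC scale with a counting interval of 0.211 to 6.11. The test of the difference between the 2 serum changes gave -4.06 ± 1.53 (unadjusted p = 0.00779, adjusted p = 1.00).

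LGR4, a receptor of R-spondins, had 3824, 3041 and 1033 ERCC-scaled counts in WT in 10% serum and 1494, 1745 and 811 in 0.1% serum. ΔLEO1 libraries had 4857, 3667 and 3029, then 1137, 638 and 3040. The serum groups overlapped in both genotypes, in ΔLEO1 through library 12. Its fall in ΔLEO1 was called (-1.26 ± 0.49, adjusted p = 0.0382) but was lost without library 2, 4, 5, 7, 10 or 11 (largest adjusted p = 0.180) and with TMM (0.353), and without library 12 it was -2.12. ZNRF3, an E3 ligase that removes Frizzleds, was not called, with log2 fold changes between -0.65 and -0.14 in the 4 comparisons. RSPO2 had 2 counts in all, LGR5 had 5, and RNF43 had none in any library. RNF43 shares 57.6% of its exon bases with an overlapping gene model on its own strand, and reads there cannot be told apart between the genes.

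In the cytoplasm, AXIN2 was lower in ΔLEO1 and APC fell in low serum in both genotypes. AXIN2, a scaffold of the destruction complex and the most used readout of β-catenin activity, lies on the minus strand of chromosome 17 from 65528563 to 65561647. In 10% serum it had 449, 397 and 167 ERCC-scaled counts in WT and 179, 105 and 109 in ΔLEO1. In low serum it had 159, 179 and 129 in WT and 31.8, 22.1 and 72.0 in ΔLEO1. The genotypes overlapped in 10% serum by 1 library each and did not overlap in 0.1% serum. In log2 terms the fold change between them was -1.37 ± 0.56 in 10% serum and -1.94 ± 0.58 in 0.1% serum (adjusted p = 0.136 and 0.0148). With TMM both were called, at -1.67 (adjusted p = 6.02e-05) and -2.19 (adjusted p = 2.07e-05). The call in 0.1% serum was lost without library 7, 8 or 10 (largest adjusted p = 0.144). In ΔLEO1, AXIN2 fell in low serum by 1.68 on the log2 scale (SE 0.58, adjusted p = 0.0254), a call lost without library 4, 5, 10 or 11 (largest adjusted p = 0.157) and with TMM (0.0715). AXIN2 shares 25.2% of its exon bases with a gene model on its own strand, which had 3 counts over the 12 libraries against 884 for AXIN2.

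APC, a scaffold of the same complex, had 7658, 6199 and 3258 ERCC-scaled counts in WT in 10% serum and 2000, 2092 and 1249 in 0.1% serum. The values in ΔLEO1 were 10068, 7316 and 7106, then 1748, 1135 and 5222. The serum groups did not overlap, and the falls of -1.68 ± 0.49 in WT (adjusted p = 0.00730) and -1.60 ± 0.49 in ΔLEO1 (adjusted p = 0.0134) were also called with TMM (-0.67 and -0.66). On the ERCC scale they were lost without library 1, 7 or 9 in WT (largest adjusted p = 0.0845) and 4, 10 or 11 in ΔLEO1 (0.144). CTNNB1, which codes for β-catenin, had 32125 ± 8998 and 37104 ± 8014 in WT and ΔLEO1 in 10% serum and 15010 ± 3954 and 17773 ± 10137 in 0.1% serum. Its log2 fold changes of -1.10 and -1.06 in low serum lay beside the all-gene medians and were not called (adjusted p = 0.0584 and 0.0554), and between the genotypes it differed by 0.21 ± 0.46 and 0.24 ± 0.46. With TMM its 4 log2 fold changes lay between -0.14 and -0.02. AXIN1 had 3220 ± 693 and 3860 ± 853 in 10% serum and 2129 ± 654 and 2536 ± 1422 in 0.1% serum, with no call on the ERCC scale and a rise in low serum with TMM (0.34, adjusted p = 0.0173 in WT, and 0.46, adjusted p = 0.00399 in ΔLEO1). NKD1 and NKD2, inhibitors induced by β-catenin, had at most 3 and 8 counts in a library.

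Of the TCF/LEF factors, TCF7 was lower in ΔLEO1 and the other 3 were not called on the ERCC scale. TCF7 (chromosome 5, plus strand, 134114711 to 134151865) had 207, 182 and 79.7 ERCC-scaled counts in WT and 16.3, 10.3 and 7.12 in ΔLEO1 in 10% serum. The values in 0.1% serum were 388, 538 and 139 in WT and 50, 30.4 and 23.1 in ΔLEO1. No ΔLEO1 library reached the lowest WT library of either serum level. In log2 terms the fold change was -3.83 ± 0.70 in 10% serum and -3.34 ± 0.60 in 0.1% serum (adjusted p = 1.57e-06 and 1.53e-06), called in each of the 12 fits that left out 1 library and with TMM. Within ΔLEO1 it rose in low serum by 1.68 ± 0.70 (adjusted p = 0.0477), a call lost in 10 of the 12 fits that left out 1 library, those without library 3 or 12 excepted (largest adjusted p = 0.199). In WT the change was 1.19 ± 0.55 (adjusted p = 0.0766), and with TMM both rises were called, at 3.0 and 2.12 in ΔLEO1 and WT. TCF7 shares 2.09% of its exon bases with SKP1 on the opposite strand. SKP1 had 72857 counts over the 12 libraries against 897 for TCF7, and its part in the TCF7 values was not tested.

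Per kb the order in every group was TCF7L1, TCF7L2, LEF1 and TCF7. TCF7L1 had 3674 ± 803 ERCC-scaled counts in WT and 3030 ± 669 in ΔLEO1 in 10% serum, and 2666 ± 1096 and 2249 ± 823 in 0.1% serum. TCF7L2 had 2897 ± 1313 and 2796 ± 735, then 2106 ± 397 and 2457 ± 1936. Neither was called on the ERCC scale, and with TMM both were higher in low serum in ΔLEO1 (0.71, adjusted p = 0.0262, and 0.76, adjusted p = 0.0447). LEF1 had 649 ± 202 and 417 ± 127 in 10% serum and 415 ± 73.7 and 247 ± 138 in 0.1% serum. Its log2 fold changes between the genotypes were -0.64 ± 0.53 (adjusted p = 0.594) and -0.76 ± 0.53 (adjusted p = 0.690), and with TMM -0.99 (adjusted p = 0.00151) and -1.04 (adjusted p = 0.00142).

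The 11 feedback targets, most of them already given by role, were AXIN2, NKD1, NKD2, NOTUM, APCDD1, ZNRF3, RNF43, LGR5, LEF1, TCF7 and DKK1, and 6 of them were tested. On the ERCC scale 1 was called higher in WT in low serum (APCDD1, 16.7% of the 6, against 0.831% of all genes). In ΔLEO1 1 was called higher (TCF7, against 0.793% of all genes) and 2 lower (AXIN2 and DKK1, 33.3% against 36.4%). Between the genotypes, 1 was higher (DKK1) and 1 lower (TCF7) in ΔLEO1 in 10% serum (all genes 3.81% and 4.20%), and 2 were lower (TCF7 and AXIN2) in 0.1% serum (all genes 3.41%). Their median log2 fold change between the genotypes was -0.39 and -0.66, where that of all genes was 0.35 and 0.27. With TMM, 1 was higher and 3 lower in 10% serum (DKK1, and AXIN2, LEF1 and TCF7), and 3 lower in 0.1% serum (the same 3 genes; all genes 21.4% and 17.3% lower), with medians of -0.75 and -0.98.

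**Figure D4:**
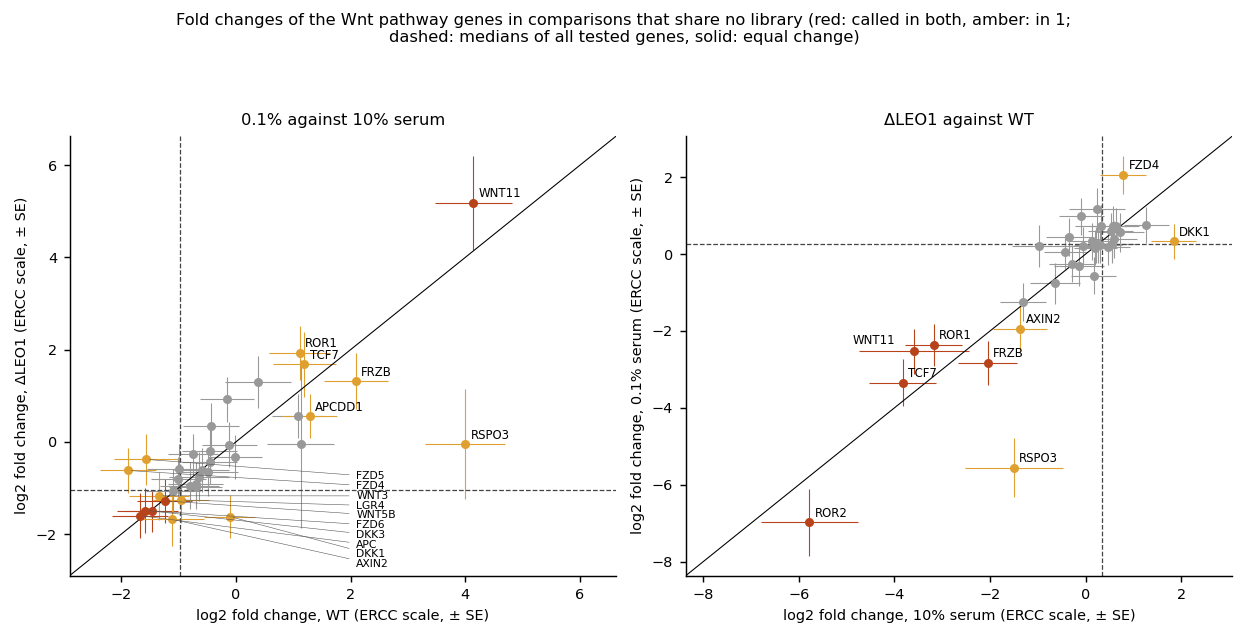
Log2 fold changes ± SE on the ERCC scale of the 35 tested genes, with the serum change in WT (x axis) against that in ΔLEO1 (y axis) on the left and the genotype difference in 10% serum (x axis) against that in 0.1% serum (y axis) on the right. Red genes were called in both comparisons of a panel and amber genes in 1, dashed lines are the medians of all tested genes, and the solid line marks equal change. RSPO3 lies far below the line in both panels, with 4.0 against -0.05 on the left and -1.50 against -5.56 on the right.

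The 2 serum comparisons share no library, and neither do the 2 genotype comparisons, but each serum comparison shares a group with each genotype comparison. Of the 35 tested members, 31 (88.6%) had the same sign of serum change in WT and ΔLEO1, as did 95.3% of all tested genes, with 12569 of the 13236 genes below 0 in WT and 12546 in ΔLEO1. Against the all-gene medians, 22 members (62.9%) lay above in both and 7 (20.0%) below in both, where 37.5% of all genes lay on each side. Of the members, 5 were called in both, each in the same direction: WNT11 higher, and WNT5B, FZD6, DKK3 and APC lower. The difference between the genotypes had the same sign at both serum levels for 29 members (82.9%) and for 85.5% of all genes. Below the all-gene median at both levels were 19 members (54.3%) and above it 8 (22.9%), against 38.8% of all genes on each side, and 5 were called in both, all lower in ΔLEO1: WNT11, ROR1, ROR2, FRZB and TCF7. The remaining 4 genes called between the genotypes were called at 1 serum level, DKK1 in 10% serum and FZD4, RSPO3 and AXIN2 in 0.1% serum. The share of all tested genes called in both comparisons of a pair is not given here. In single comparisons, 27.0% of all genes in WT and 36.4% in ΔLEO1 were called lower in low serum. Between the genotypes, 4.20% in 10% serum and 3.41% in 0.1% serum were called lower in ΔLEO1.

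The test of whether the serum change itself differed between WT and ΔLEO1 called 0 of the 35 members (edgeR quasi-likelihood, all genes 0.174%), with 2 members at an unadjusted p under 0.05, RSPO3 and DKK1 (-1.51 ± 0.64, unadjusted p = 0.0192). The likelihood ratio test and DESeq2 with ERCC size factors also called 0. With TMM on the genes 1 member was called (all genes 1.99%). It was FZD4, whose serum change was higher in ΔLEO1 than in WT by 1.37 on the log2 scale with TMM (adjusted p = 0.00187) and by 1.27 ± 0.68 on the ERCC scale (unadjusted p = 0.0600, adjusted p = 1.00).

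Of 68 further genes of the pathway, listed by hand, 39 were tested. In low serum 2 were called higher (5.13%, against 0.831% of all genes) and 11 lower (28.2%, against 27.0%) in WT, and 3 higher (7.69%, against 0.793%) and 7 lower (17.9%, against 36.4%) in ΔLEO1. Between the genotypes 4 were called in 10% serum, all lower in ΔLEO1 (10.3%, against 4.20%), and in 0.1% serum 1 was called higher (2.56%, against 3.49%) and 3 lower (7.69%, against 3.41%). The median log2 fold changes of the list were -0.79, -0.79, 0.15 and 0.17 in the order of these comparisons. With TMM 9 were called higher and 7 lower in WT in low serum (23.1% and 17.9%, all genes 15.5% and 16.1%), 15 and 4 in ΔLEO1 (38.5% and 10.3%, all genes 15.5% and 12.1%), 3 and 15 between the genotypes in 10% serum (7.69% and 38.5%, all genes 17.9% and 21.4%), and 3 and 10 in 0.1% serum (7.69% and 25.6%, all genes 15.1% and 17.3%). CELSR1, a planar polarity cadherin, PTK7, a pseudokinase receptor, and the corepressor TLE2 were lower in ΔLEO1 at both serum levels. The cadherins CELSR2 and CELSR3, the receptor RYK and the formin DAAM1, named after their values were seen, had log2 fold changes of 0.06 to 1.07 between the genotypes with no call there on the ERCC scale, while with TMM DAAM1 was called higher in ΔLEO1 at both levels (0.47 and 0.71, adjusted p = 0.0481 and 0.00836). CELSR1 had 4287, 3346 and 2374 ERCC-scaled counts in WT and 139, 157 and 140 in ΔLEO1 in 10% serum, and 1114, 1421 and 616 against 90.9, 58 and 216 in 0.1% serum. Its log2 fold changes were -4.52 ± 0.58 (adjusted p = 1.15e-12) and -3.13 ± 0.55 (adjusted p = 6.18e-07).

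PTK7 changed by -3.68 ± 0.52 and -2.42 ± 0.49, and TLE2 by -4.21 ± 0.79 and -2.44 ± 0.61, the former on 101 counts against 5 over the 3 libraries of each group. DACT1, a modulator of Dishevelled, was lower in ΔLEO1 in 10% serum (-2.04 ± 0.52, adjusted p = 0.00170, lost without library 5 at 0.0838) and higher in low serum in both genotypes (2.04 ± 0.51 in WT and 2.65 ± 0.53 in ΔLEO1). TLE3 rose in low serum in both (1.59 ± 0.51 and 1.70 ± 0.51, lost without library 2, 7 or 8 in WT at up to 0.0937 and 4, 5 or 10 in ΔLEO1 at up to 0.116), and TLE2 rose in ΔLEO1 (2.26 ± 0.83, adjusted p = 0.0312, lost without library 4, 5, 10 or 12 at up to 0.140). The 3 largest falls in low serum were those of CELSR2 (-2.58), TLE4 (-2.11) and CELSR1 (-1.67) in WT, and of CELSR2 (-2.20), TLE4 (-1.72) and CSNK1G1 (-1.51) in ΔLEO1. Single libraries ended the calls of CELSR1 (without 1, 2, 7 or 9, at up to 0.126), of TLE4 in ΔLEO1 (4, 10 or 11, 0.140) and of CSNK1G1 (4, 5, 10 or 11, 0.144).

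WNT9A, a ligand, was the gene of this list called higher in ΔLEO1 in 0.1% serum. It had 270, 320 and 480 ERCC-scaled counts in WT and 763, 544 and 2549 in ΔLEO1, with library 12 far above the rest. In log2 terms the fold change of 1.85 ± 0.53 (adjusted p = 0.00944) was lost without library 7, 8 or 12 (largest adjusted p = 0.268). With TMM, WNT9A had 5.59, 5.09 and 12.6 CPM in WT and 14.8, 17.9 and 26.4 CPM in ΔLEO1 in 0.1% serum, with no overlap. A pair of genes under the filter were picked out after their values were seen. RSPO1, another R-spondin, had 52, 41 and 33 counts in WT in 0.1% serum, 0 in each library in 10% serum of either genotype, and 0, 0 and 1 in ΔLEO1 in 0.1% serum. In WT it was thus at least 8.57-fold higher in low serum, against a floor of 3 counts per library. GPC6, a glypican, had 61, 82 and 33 counts in WT and 0, 0 and 0 in ΔLEO1 in 10% serum, at least 18.1-fold lower against the same floor.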

How the data were processed

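The authors deposited raw counts per Ensembl gene and per ERCC transcript for 12 libraries. Per the labels and methods, reads were aligned with STAR (2.7.10a in the submitters' processing notes, an earlier version in the methods) to GRCh38 and the ERCC sequences and counted in exons with featureCounts 1.5.1. The strand setting and annotation release are not given in the sources used here. Of 60671 genes, 58453 were found in GENCODE, which gave positions and exon lengths.

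The 13236 genes above 1 CPM in at least 3 libraries were tested in 1 fit of the 4 groups with edgeR 4.0.16 (R 4.3.3), by the quasi-likelihood F-test, two-sided, with Benjamini-Hochberg adjustment. Library sizes were the totals of the 92 ERCC transcripts times their TMM factors. The study names edgeR but the test within it is not given in the sources used here. The SE is the log2 fold change over the square root of F. In counts simulated for the serum comparison in WT on 13236 genes, 174 of 200 changed genes were recovered and 4 unchanged genes were called. The planted changes were larger than most called serum changes of the members, and no shift common to most genes was planted. The recovery thus does not measure the power for the members' changes. The precision of an ERCC share was within a 95% Wilson interval of 0.0120 percentage points, and intervals cover counting error only.

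The members and lists were chosen with earlier results of these data known. Given in full were the members called in at least 1 comparison, at most the 10 largest in each, and the core genes CTNNB1, APC, AXIN1, AXIN2, LRP5, LRP6, LEF1, TCF7, TCF7L1 and TCF7L2, whatever their result. Of the further pathway genes, at most the 3 largest called changes per direction and any called ligand were named. Alternatives were TMM and DESeq2 1.42.0 size factors on the genes, DESeq2 with ERCC size factors, the likelihood ratio test, ERCC totals without TMM factors, no filter, 8 libraries, the sum of the 2 lowest-numbered libraries, each library left out, and a term for the highest-numbered library of each group, chosen after seeing the data. Fits to fewer libraries kept the 13236 genes.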

Additional observations from a re-analysis of the deposited data

How the results depend on the processing

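No paired analysis was possible because the library numbers run from 1 to 12 and no 2 groups share one. A term for the highest-numbered library of each group, chosen after seeing the data because these 4 libraries stood apart, kept 29 of the 35 calls. It kept each call between the genotypes and ended the serum calls of WNT3 (adjusted p = 0.0616) and APCDD1 (0.0585) in WT, WNT5B in both genotypes (0.0589 and 0.0669), and LGR4 (0.0784) and TCF7 (0.0754) in ΔLEO1. Of the 35 calls, 35 were kept by the likelihood ratio test and by ERCC totals without TMM factors, 33 by DESeq2 with ERCC size factors, 33 without the 4 highest-numbered libraries, 28 without a filter, 27 with TMM or with DESeq2 size factors on the genes, and 10 when a group's 2 lowest-numbered libraries were summed and set beside the other. No call changed direction, and 16 were made in each fit that left out 1 library. With TMM and with DESeq2 size factors on the genes, 11 and 12 members were called higher and 4 and 4 lower in WT in low serum, 16 and 16 higher and 3 and 3 lower in ΔLEO1, 5 and 5 higher and 11 and 11 lower in ΔLEO1 against WT in 10% serum, 4 and 4 higher in 0.1% serum, and 1 and 1 in the interaction. The likelihood ratio test called 5 higher in ΔLEO1 in low serum, and the fit without a filter 4 lower in WT. Without the 4 highest-numbered libraries, 14 were called lower in low serum in WT and 22 in ΔLEO1, 40.0% and 62.9% of the tested members, against 63.1% and 91.3% of all genes. In 0.1% serum 1 was then called higher and 10 lower in ΔLEO1 than in WT (28.6%, against 12.4% of all genes). With summed libraries 2 were called higher and 0 lower in WT in low serum, 1 and 0 in ΔLEO1, 0 higher and 3 lower between the genotypes in 10% serum, and 3 lower in 0.1% serum, where each group held 2 values. The shares of all genes called by the likelihood ratio test, without a filter, with DESeq2 size factors on the genes and with summed libraries are not given here. The cause of these differences was not tested.

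With 1 library left out, in low serum 3 to 8 were called higher (8 without library 12) and 1 to 12 lower in WT (1 without 1, 7 or 9, 2 without 2, 12 without 12), and 1 to 6 higher (1 without 4, 5 or 10, 6 without 12) and 0 to 20 lower in ΔLEO1 (0 without 4 or 10, 20 without 12). Between the genotypes 1 to 2 were called higher and 3 to 7 lower in 10% serum (3 without 1 or 4), 1 to 3 higher and 6 to 8 lower in 0.1% serum, and 0 in the interaction. The shares of all genes called in these fits are not given here. The counts are thus not set against a shift common to most genes. The libraries held 244023 to 1090393 ERCC counts. What limits the tests of the abundant members was not tested. WNT11, ROR2, RSPO3 and TCF7 rest on few counts in ΔLEO1.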
